A study of Mus musculus with 6 samples.

Results

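Ribosome biogenesis and nucleolar genes, a set of 32 genes that includes the regulator Myc, were followed through 6 libraries of bulk RNA from mouse embryonic blood cells. The genes were taken by name from the deposited table, and all 32 were among its 17909 genes. Every library came from embryos of a C57BL/6xFVB background in which Csf1r-iCre, a Cre recombinase under the promoter of the macrophage growth factor receptor gene Csf1r, had marked the early erythro-myeloid progenitor (EMP) lineage. At E11.5 the fetal liver gave EMPs, mast cell progenitors (MCPs) and cells labelled as macrophages (MAC), and the limb gave MCPs. The 2 later libraries were E14.5 limb MCPs and skin cells at E16.5, the last titled MCPs but described as mast cells. The labels call the liver EMP library LiB7_neg and the liver MCP library LiB7_pos, and they do not say how many embryos were pooled for a library. Each group held 1 library, so no test, standard error or p-value could be had, and every difference here describes a pair of libraries.

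Ribosomes are built in the nucleolus, where RNA polymerase I transcribes the ribosomal RNA precursor. Box C/D and box H/ACA ribonucleoproteins, guided by small nucleolar RNAs, modify that RNA, and large sets of assembly factors fold and cut it into the small and large subunits. MYC is a transcription factor known to raise the expression of many of these genes in dividing cells, and it binds the E-box CACGTG as a dimer with MAX. Fetal blood progenitors divide fast, while maturing mast cells shift their synthesis toward granule contents.

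Promoters are shown first because MYC is known to act through E-boxes. RefSeq promoter windows (GRCm38.p6, from 250 bases before to 50 after the start site) were at hand for 25 of the 32 genes. The motif CACGTG, which reads the same on both strands, was present in 4 of the 25 (16%), against 9.9% of the 13619 genes of the table with a window. The 4 windows follow, 5′ to 3′ along the gene, with the motif in capitals.
Nop2, chr6:125131633-125131932, plus strand: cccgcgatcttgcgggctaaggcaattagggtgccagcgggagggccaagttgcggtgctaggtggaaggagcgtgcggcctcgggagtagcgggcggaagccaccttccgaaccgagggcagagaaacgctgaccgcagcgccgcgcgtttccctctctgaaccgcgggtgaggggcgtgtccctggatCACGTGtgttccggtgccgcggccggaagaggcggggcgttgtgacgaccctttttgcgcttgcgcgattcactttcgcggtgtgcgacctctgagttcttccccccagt
Pes1, chr11:3963725-3964024, plus strand: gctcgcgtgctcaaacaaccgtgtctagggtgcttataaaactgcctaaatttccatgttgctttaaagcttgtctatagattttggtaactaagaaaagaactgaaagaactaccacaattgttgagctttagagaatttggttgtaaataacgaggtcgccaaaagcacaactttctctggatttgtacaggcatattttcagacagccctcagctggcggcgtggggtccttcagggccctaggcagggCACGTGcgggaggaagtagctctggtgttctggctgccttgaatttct
Mybbp1a, chr11:72441077-72441376, plus strand: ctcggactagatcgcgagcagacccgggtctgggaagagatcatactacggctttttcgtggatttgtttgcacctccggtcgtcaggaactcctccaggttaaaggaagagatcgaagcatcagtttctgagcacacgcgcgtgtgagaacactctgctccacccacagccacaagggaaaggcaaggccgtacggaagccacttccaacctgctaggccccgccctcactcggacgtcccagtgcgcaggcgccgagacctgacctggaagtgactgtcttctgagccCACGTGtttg
Wdr43, chr17:71615965-71616264, plus strand: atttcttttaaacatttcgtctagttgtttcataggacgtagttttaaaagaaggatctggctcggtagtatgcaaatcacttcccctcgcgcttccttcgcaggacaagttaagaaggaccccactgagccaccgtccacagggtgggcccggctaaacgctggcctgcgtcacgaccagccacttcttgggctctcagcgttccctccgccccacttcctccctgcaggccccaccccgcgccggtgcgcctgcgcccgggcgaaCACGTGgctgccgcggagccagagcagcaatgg
The motif began 60 bases before the start site in Nop2 and on base 3, 41 and 18 of the transcript in Pes1, Mybbp1a and Wdr43. A match is a description of letters and not a binding site, and a gene without one in this window may carry one elsewhere.

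Levels were given by the authors as FPKM, fragments per transcript length and library size. They are per length and can therefore be compared between genes. Their sums differed between libraries, with 84036 in skin and 169289 in EMPs as the ends. Library totals, estimated from the steps between FPKM values, were 8900000 to 12700000 fragments. For a 2 kb transcript at 10 FPKM the counting error was then 6.27% to 7.5%, which leaves out library preparation and biological spread. The skin library stood apart from the rest. In it 5675 genes reached 1 FPKM, against 8270 to 8754 in the others, and a 0 was listed for 26 of the 1660 genes with 10 FPKM or more everywhere else. Median-of-ratios size factors, which align the bulk of shared genes, were 0.526 for skin and 1.03 to 1.24 for the others. Results are therefore given on deposited FPKM and on scaled FPKM, with skin read with most care. In pooled RNA of sorted cells, fewer cells of a type and less RNA per cell cannot be told apart.

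Marker genes bear on the labels. Of 16 mast cell markers 7 reached 1 FPKM in liver MCPs, 8 in E11.5 limb MCPs and 14 each in E14.5 limb MCPs and in the skin library, where Gata2 was listed at 0. EMPs had 5 at that level and MAC cells 4, so liver MCPs were only a little above them by count. The sums of these markers were 376 FPKM in liver MCPs, 129 in EMPs and 67.3 in MAC cells. The MAC library had 9 of 13 macrophage markers at 1 FPKM or more, with a sum of 124 FPKM, beside 10026 FPKM of eosinophil markers and 8405 FPKM of neutrophil and monocyte markers. EMPs, with 26.2 FPKM of macrophage markers, held 270 FPKM of eosinophil and 10494 FPKM of neutrophil and monocyte markers. The MAC library was thus not one of macrophage genes alone, and the part of these other cells in its results was not tested.

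All 32 genes were at 1 FPKM or more in each of the 5 liver and limb libraries, and 18 were in skin. Their median was 19.5 FPKM in EMPs, 16.7 in liver MCPs, 8.32 in MAC cells, 8.94 in E11.5 limb MCPs, 15.4 in E14.5 limb MCPs and 1.34 in skin cells. On scaled FPKM the medians were 15.7, 13.8, 8.12, 8.17, 13.2 and 2.55 in the same order of libraries. EMPs and liver MCPs thus stood at the top, E14.5 limb MCPs came near them, and skin cells stood far below on either scale. The highest deposited level fell to EMPs for 20 genes, to liver MCPs for 10, to E11.5 limb MCPs for Ddx18 and to E14.5 limb MCPs for Ddx21. The lowest fell to skin for 29 genes and to MAC cells for Npm1, Nop14 and Gnl3. With scaling, skin remained the lowest for 25 genes and MAC cells were the lowest for 6.

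**Figure D1:**
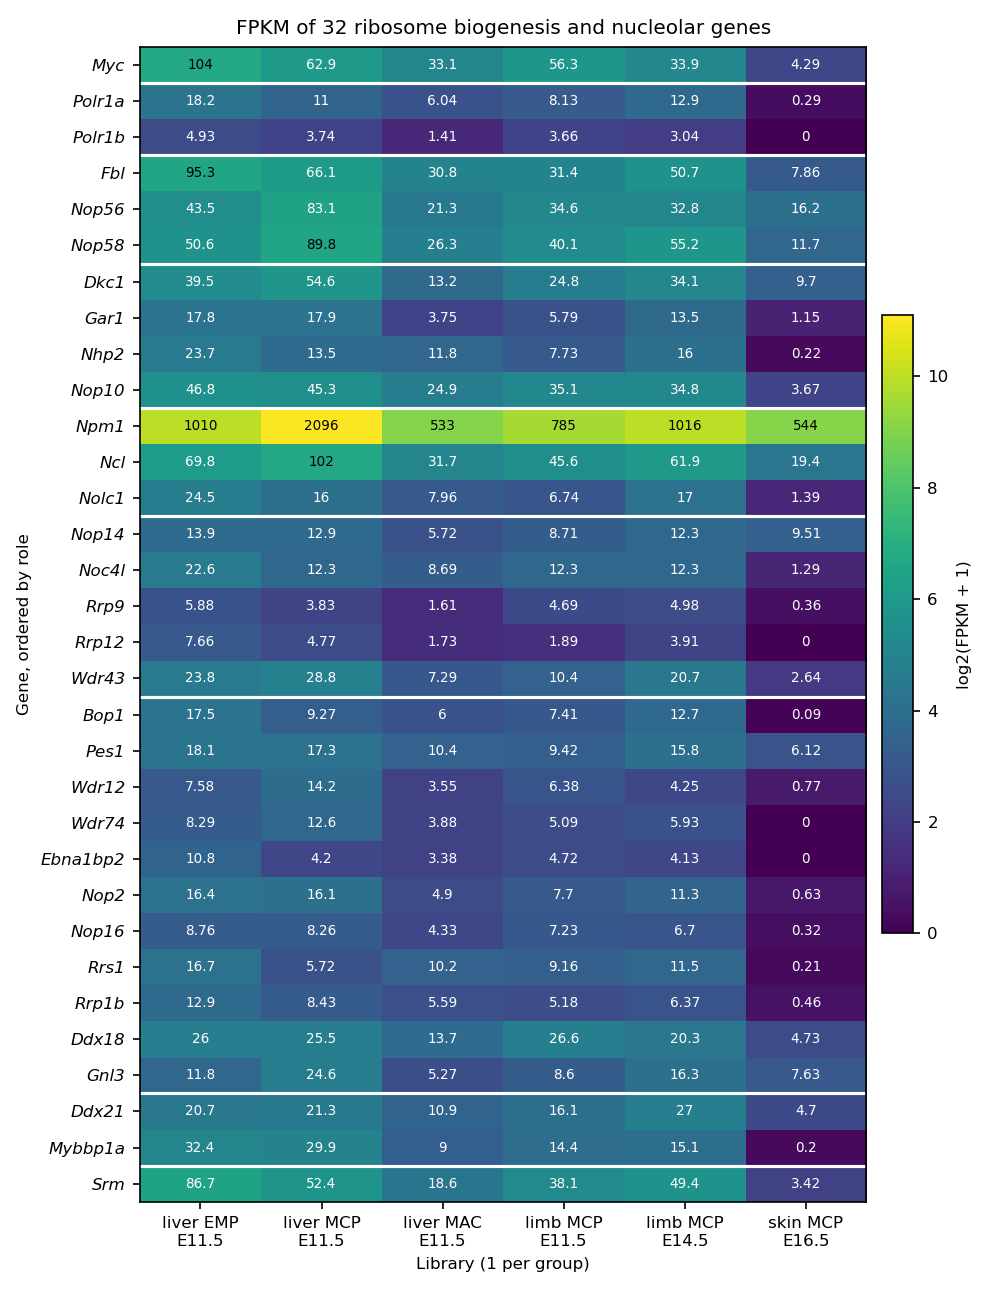
FPKM of the 32 genes (rows, grouped by role with white lines between groups) in the 6 libraries (columns), printed in each cell, with colour showing log2(FPKM + 1). Npm1 stands far above all other genes, with 2096 FPKM in liver MCPs, and the skin column is the darkest, with 4 genes listed at 0.

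Npm1, the nucleolar phosphoprotein and histone chaperone nucleophosmin, dominated the set. It read 1010 FPKM in EMPs, 2096 in liver MCPs, 533 in MAC cells, 785 in E11.5 limb MCPs, 1016 in E14.5 limb MCPs and 544 in skin cells. The highest value of any other gene was 104 FPKM, that of Myc in EMPs. Npm1 lies on chromosome 11 at 33152287 to 33163206 (GRCm38), and since processed copies of it exist elsewhere in the mouse genome, its value may hold reads of copies. The 32 genes together made up 1.13% of the FPKM sum in EMPs, 1.94% in liver MCPs, 0.546% in MAC cells, 0.921% in E11.5 limb MCPs, 1.1% in E14.5 limb MCPs and 0.788% in skin cells. Without Npm1 the shares were 0.536%, 0.573%, 0.215%, 0.360%, 0.420% and 0.142% in that order, so Npm1 made most of what skin held.

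RNA polymerase I was represented by its 2 large subunits. Polr1a had 18.2 in EMPs, 10.98 in liver MCPs and 6.04 in MAC cells, and then 8.13 in the early and 12.9 in the late limb library and 0.29 in skin (all FPKM). Polr1b had 4.93 in EMPs, 3.74 in liver MCPs, 1.41 in MAC cells, 3.66 and 3.04 in limb MCPs at the early and late age, and was listed at 0 in skin cells. EMPs stood at the top for both, and Polr1b was low throughout.

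Box C/D ribonucleoproteins carry the ribose methyltransferase fibrillarin on a pair of scaffold proteins. Fbl had 95.3 in EMPs, 66.1 in liver MCPs and 30.8 in MAC cells, and then 31.4 in the early and 50.7 in the late limb library and 7.86 in skin (all FPKM). Nop56 had 43.5 in EMPs, 83.1 in liver MCPs, 21.3 in MAC cells, 34.6 and 32.8 in limb MCPs at the early and late age, and 16.2 in skin cells. Nop58 had 50.6 in EMPs, 89.8 in liver MCPs and 26.3 in MAC cells, and then 40.1 in the early and 55.2 in the late limb library and 11.7 in skin. Fbl was highest in EMPs, Nop56 and Nop58 in liver MCPs, and all 3 were lowest in skin.

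Box H/ACA ribonucleoproteins convert uridine to pseudouridine through the enzyme dyskerin and its partners. Dkc1, which encodes dyskerin, had 39.5 in EMPs, 54.6 in liver MCPs, 13.2 in MAC cells, 24.8 and 34.1 in limb MCPs at the early and late age, and 9.7 in skin cells (all FPKM). Gar1 had 17.8 in EMPs, 17.9 in liver MCPs and 3.75 in MAC cells, and then 5.79 in the early and 13.5 in the late limb library and 1.15 in skin. Nhp2 had 23.7 in EMPs, 13.5 in liver MCPs, 11.8 in MAC cells, 7.73 and 15.97 in limb MCPs at the early and late age, and 0.22 in skin cells. Dkc1 peaked in liver MCPs and Nhp2 in EMPs, while Gar1 was level in both. Nop10, a small protein of the same particle, had 46.8 in EMPs, 45.3 in liver MCPs and 24.9 in MAC cells, and then 35.1 in the early and 34.8 in the late limb library and 3.67 in skin, so that it stayed high in E11.5 limb MCPs where Gar1 and Nhp2 were low.

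Nucleolin and Nolc1 are abundant nucleolar phosphoproteins. Ncl had 69.8 in EMPs, 102 in liver MCPs, 31.7 in MAC cells, 45.6 and 61.9 in limb MCPs at the early and late age, and 19.4 in skin cells (all FPKM). Nolc1, a chaperone of small nucleolar ribonucleoproteins, had 24.5 in EMPs, 16.03 in liver MCPs and 7.96 in MAC cells, and then 6.74 in the early and 16.99 in the late limb library and 1.39 in skin. Liver MCPs were highest for Ncl and EMPs for Nolc1.

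Small subunit assembly was represented by 5 genes. Noc4l had 22.6 in EMPs, 12.3 in liver MCPs, 8.69 in MAC cells, 12.3 and 12.3 in limb MCPs at the early and late age, and 1.29 in skin cells (all FPKM). Wdr43 had 23.8 in EMPs, 28.8 in liver MCPs and 7.29 in MAC cells, and then 10.4 in the early and 20.7 in the late limb library and 2.64 in skin. Nop14 had 13.9 in EMPs, 12.9 in liver MCPs, 5.72 in MAC cells, 8.71 and 12.3 in limb MCPs at the early and late age, and 9.51 in skin cells. Noc4l was far lower in skin than in every other library, whereas Nop14 in skin was above its MAC and E11.5 limb levels. Rrp9, of the U3 ribonucleoprotein, had 5.88 in EMPs, 3.83 in liver MCPs and 1.61 in MAC cells, and then 4.69 in the early and 4.98 in the late limb library and 0.36 in skin. Rrp12, of subunit export, had 7.66 in EMPs, 4.77 in liver MCPs, 1.73 in MAC cells, 1.89 and 3.91 in limb MCPs at the early and late age, and was listed at 0 in skin cells. Both were highest in EMPs and under 2 FPKM in MAC cells.

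Large subunit assembly was the broadest group, with 11 genes. Pes1 had 18.1 in EMPs, 17.3 in liver MCPs and 10.4 in MAC cells, and then 9.42 in the early and 15.8 in the late limb library and 6.12 in skin (all FPKM). Bop1 had 17.5 in EMPs, 9.27 in liver MCPs, 6 in MAC cells, 7.41 and 12.7 in limb MCPs at the early and late age, and 0.09 in skin cells. Wdr12 had 7.58 in EMPs, 14.2 in liver MCPs and 3.55 in MAC cells, and then 6.38 in the early and 4.25 in the late limb library and 0.77 in skin. These partners of 1 complex peaked in different libraries, Pes1 and Bop1 in EMPs and Wdr12 in liver MCPs. Gnl3 had 11.8 in EMPs, 24.6 in liver MCPs, 5.27 in MAC cells, 8.6 and 16.3 in limb MCPs at the early and late age, and 7.63 in skin cells. Ddx18 had 25.98 in EMPs, 25.5 in liver MCPs and 13.7 in MAC cells, and then 26.6 in the early and 20.3 in the late limb library and 4.73 in skin. Nop2 had 16.4 in EMPs, 16.1 in liver MCPs, 4.9 in MAC cells, 7.7 and 11.3 in limb MCPs at the early and late age, and 0.63 in skin cells. Gnl3 was lowest in MAC cells, and Ddx18 had about the same level in EMPs, liver MCPs and E11.5 limb MCPs. Rrs1 had 16.7 in EMPs, 5.72 in liver MCPs and 10.2 in MAC cells, and then 9.16 in the early and 11.49 in the late limb library and 0.21 in skin. Ebna1bp2 had 10.8 in EMPs, 4.2 in liver MCPs, 3.38 in MAC cells, 4.72 and 4.13 in limb MCPs at the early and late age, and was listed at 0 in skin cells. Liver MCPs were thus below EMPs, and below all limb libraries for Rrs1. Rrp1b had 12.9 in EMPs, 8.43 in liver MCPs and 5.59 in MAC cells, and then 5.18 in the early and 6.37 in the late limb library and 0.46 in skin. Nop16 had 8.76 in EMPs, 8.26 in liver MCPs, 4.33 in MAC cells, 7.23 and 6.7 in limb MCPs at the early and late age, and 0.32 in skin cells. Wdr74 had 8.29 in EMPs, 12.6 in liver MCPs and 3.88 in MAC cells, and then 5.09 in the early and 5.93 in the late limb library and was listed at 0 in skin. Rrp1b and Nop16 were highest in EMPs and Wdr74 in liver MCPs.

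Ddx21, an RNA helicase that acts on ribosomal DNA transcription and precursor processing, had 20.7 in EMPs, 21.3 in liver MCPs, 10.9 in MAC cells, 16.1 and 27 in limb MCPs at the early and late age, and 4.7 in skin cells (all FPKM). Mybbp1a had 32.4 in EMPs, 29.9 in liver MCPs and 9 in MAC cells, and then 14.4 in the early and 15.1 in the late limb library and 0.2 in skin. Srm had 86.7 in EMPs, 52.4 in liver MCPs, 18.6 in MAC cells, 38.1 and 49.4 in limb MCPs at the early and late age, and 3.42 in skin cells. Ddx21 was the 1 gene with its top value in the late limb library, and the other two were highest in EMPs.

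Exons of 6 genes (Polr1a, Nop14, Bop1, Pes1, Wdr12 and Mybbp1a) overlap those of an antisense gene in GENCODE M21. Whether the libraries kept strand is not given in the sources used here, so reads of the partner may be held in these values.

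Myc, on chromosome 15 at 61985391 to 61990374, read 104 FPKM in EMPs, 62.9 in liver MCPs, 33.1 in MAC cells, 56.3 in E11.5 limb MCPs, 33.9 in E14.5 limb MCPs and 4.29 in skin cells. Scaled, it was 84.1, 52.2, 32.2, 51.5, 29.0 and 8.15 in the same order. EMPs were at the top, liver MCPs and limb MCPs of the same day next and close together, MAC cells and E14.5 limb MCPs lower and close together, and skin at the bottom. Over the 6 libraries the log2(FPKM + 1) values of the other 31 genes correlated with Myc at a median Pearson r of 0.91, with 0.33 for Nop14 and 0.98 for Noc4l as the ends. The median over 10768 genes of the table was 0.65. These points share depth and library make-up, and the relation leaned on skin. Without the skin library the median r over 5 libraries was 0.61 for the 31 genes and 0.17 for the genes of the table.

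Liver MCPs were set against liver EMPs, the LiB7_pos and LiB7_neg libraries of the same organ and day. The set as a whole stood level, with a median difference in log2(FPKM + 1) of −0.09 against −0.08 for all genes. Its members parted in both directions, about as widely as all genes did. The lower and upper quartiles were −0.61 and 0.31 for the members, beside −0.58 and 0.46 for all genes. Only Npm1 was at least 2-fold higher, which here means a difference of 1 or more in log2(FPKM + 1) (2096 in liver MCPs against 1010 FPKM in EMPs), against 9.23% of the 9448 genes that reached 1 FPKM in the pair. Ebna1bp2 and Rrs1, both factors of large subunit assembly, were at least 2-fold lower, against 11.6% of all genes. On scaled FPKM 2 genes were higher, against 8.57%, and 2 lower, against 9.78%. The member counts are thus below or near those of all genes. Whether the splits within complexes described next were wider than those among other genes was not tested.

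Transcripts for the scaffold proteins of box C/D ribonucleoproteins stood higher in liver MCPs, while that for the methyltransferase stood lower. None of these differences reached 2-fold on deposited or scaled FPKM. Nop56 read 83.1 in liver MCPs against 43.5 FPKM in EMPs and Nop58 read 89.8 against 50.6, whereas Fbl, the fibrillarin gene, read 66.1 in liver MCPs against 95.3 in EMPs. The ratio of Fbl to Nop56, which no scaling of a library can move, was 0.80 in liver MCPs and 2.19 in EMPs. In MAC cells it was 1.44, in the early limb library 0.91, in the late one 1.55, and in skin cells 0.49. Box H/ACA genes parted likewise. Dkc1, the pseudouridine synthase dyskerin, read 54.6 in liver MCPs against 39.5 FPKM in EMPs, and Nhp2, a core RNA-binding partner, read 13.5 against 23.7. Gar1 was 17.9 against 17.8 and Nop10 was 45.3 against 46.8, which is nearly level.

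The Pes1, Bop1 and Wdr12 proteins form one complex of large subunit maturation, and their genes did not move alike. Wdr12 read 14.2 in liver MCPs against 7.58 FPKM in EMPs, Bop1 9.27 against 17.5, and Pes1 17.3 against 18.1. Wdr12 over Bop1 was 1.53 in liver MCPs and 0.43 in EMPs. Gnl3, the nucleostemin gene of stem and progenitor cells, read 24.6 in liver MCPs against 11.8 FPKM in EMPs, on the 2-fold line of log2(FPKM + 1), just inside it (1.02) on scaled and just outside it on deposited FPKM. Ncl, which encodes nucleolin, stood at 102 against 69.8, and Wdr74, a factor of large subunit assembly, at 12.6 against 8.29. Lower values in liver MCPs were those of Rrs1 (5.72 against 16.7 FPKM), which brings the small ribosomal RNA of the large subunit into place, and Ebna1bp2 (4.2 against 10.8). Polr1a, the largest subunit of RNA polymerase I, read 10.98 against 18.2, Noc4l of small subunit assembly 12.35 against 22.6, and Srm, the spermidine synthase gene and a known MYC target, 52.4 against 86.7. Myc itself differed by −0.72 on the log2 scale, and 26 of the other 31 genes had differences above that. Erythroid markers, summed, read 376 in liver MCPs against 88.1 FPKM in EMPs, and neutrophil and monocyte markers 1066 against 10494, and their part in these values was not tested.

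MAC cells were set against EMPs, the library also used in the comparison above. All 32 genes stood lower in MAC cells on both scales. Of these, 20 were at least 2-fold lower and none higher, where 9.84% of 9124 genes were lower and 5.86% higher. Scaled, 16 were lower, against 5.24% of all genes, and none higher, against 7.54%. The median difference was −1.21, with −0.24 for all genes, and −0.95 with −0.01 on scaled FPKM.

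Srm showed the largest gap, at 18.6 FPKM in MAC cells against 86.7 in EMPs. Gar1, the glycine- and arginine-rich box H/ACA protein, read 3.75 against 17.8, and Mybbp1a, a nucleolar protein that binds MYB, followed at 9 against 32.4. Myc stood at 33.1 against 104. All 5 genes of the small subunit processome group were at least 2-fold lower in MAC cells than in EMPs on deposited FPKM, and all but Nop14 (−0.89) were so when scaled. Rrp12, a factor of subunit export, read 1.73 against 7.66 FPKM, Rrp9, a protein of the U3 ribonucleoprotein, 1.61 against 5.88, and Wdr43, needed for early precursor transcription, 7.29 against 23.8. Both RNA polymerase I subunits were also among the 20, Polr1a at 6.04 against 18.2 and Polr1b at 1.41 against 4.93. Large subunit factors differed less, with 5 of 11 past 2-fold, and Rrs1 (10.2 against 16.7) and Pes1 (10.4 against 18.1) had the smallest differences of all 32.

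Proliferation genes did not go with the set here. Of 20 such genes none was 2-fold lower or higher in MAC cells on deposited FPKM. Their median was −0.03 on deposited and 0.23 on scaled FPKM. At the ends of the list, Mki67 read 122 in MAC cells against 71.7 FPKM in EMPs, and Mcm2 read 40.5 against 69.7. Other genes of the pathway had medians below 0, nearer to 0 than that of the set, and their counts depended on the scaling. Small subunit assembly genes outside the 32 had 13 of 45 at least 2-fold lower and none higher on deposited FPKM (median −0.71), and 7 lower and 1 higher when scaled (−0.45). Large subunit assembly genes had 9 of 42 lower and none higher on deposited FPKM (−0.71), but only 2 of 42 lower when scaled (−0.48), near the share of all genes. Among them were Tbl3, a small subunit processome protein (3.27 against 11.3 FPKM), and Ftsj3, a methyltransferase of ribosomal RNA (5.14 against 15.2). Cytosolic ribosomal protein genes had 8 of 77 lower and none higher on deposited FPKM (−0.51) and 3 of 77 lower when scaled (−0.24), counts near those of all genes. The eosinophil and neutrophil markers given above moved with this comparison, and their part in it was not tested.

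**Figure D2:**
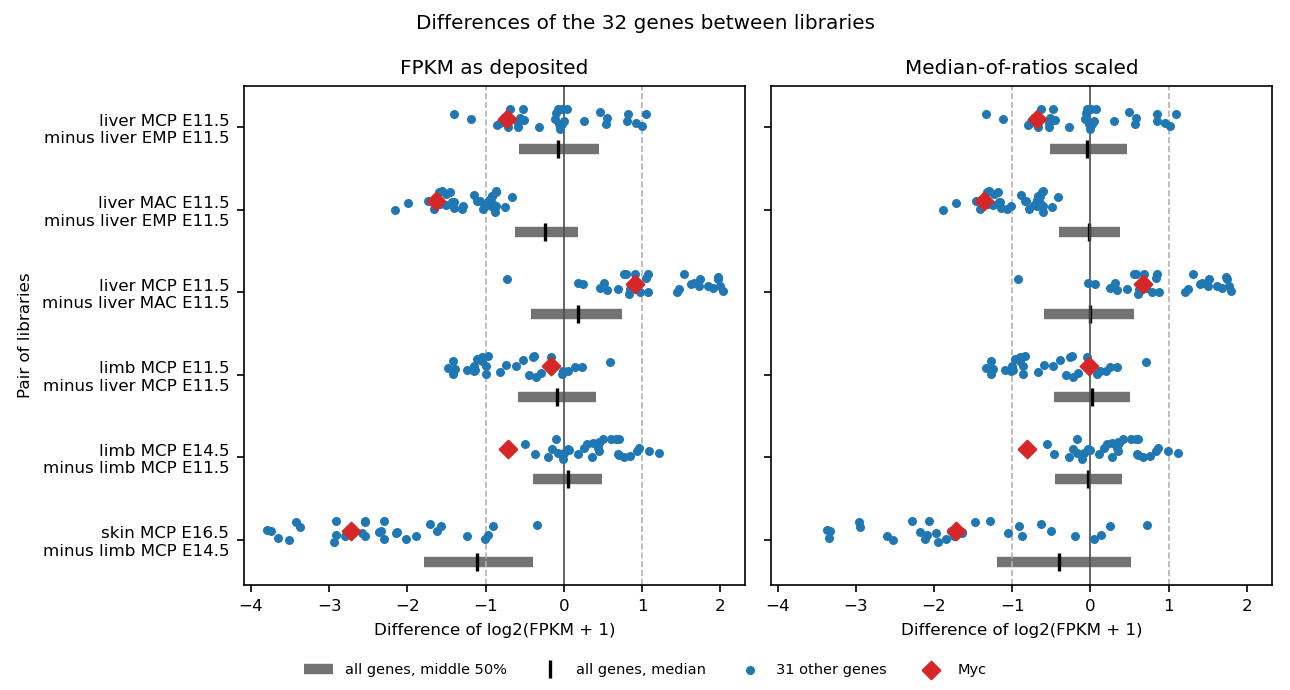
Differences of log2(FPKM + 1) for Myc (red diamonds) and the other 31 genes (blue points) in 6 pairs of libraries, the first named minus the second, on deposited FPKM (left) and scaled FPKM (right), with dashed lines at 2-fold. Grey bars span the middle 50% of all genes and black ticks mark their median. Every gene lies left of 0 for MAC cells minus EMPs, and Myc lies left of all others for E14.5 limb MCPs minus E11.5.

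Liver MCPs were also set against MAC cells directly, with libraries that both served above. In liver MCPs 16 of the 32 genes stood at 2-fold or more above MAC cells, against 16.4% of 9529 genes, and none was lower, against 11.7%. Scaled, 13 were higher, against 11.3%, none was lower, against 14.2%, and the median difference was 0.81 where all genes had 0.00. Gnl3 had the largest difference, at 24.6 in liver MCPs against 5.27 FPKM in MAC cells. Gar1 read 17.9 against 3.75, Dkc1 54.6 against 13.2 and Npm1 2096 against 533. All 3 box C/D genes passed 2-fold on deposited FPKM, and all but Fbl (0.85) when scaled, and Nop56 led them at 83.1 in liver MCPs against 21.3 FPKM in MAC cells. Rrs1 alone went the other way, at 5.72 against 10.2. Ribosomal protein genes were also higher in liver MCPs, with 46 of 77 past 2-fold and 1 lower (median 1.11, beside 1.01 for the set), and 32 and 1 when scaled (0.87, beside 0.81). Proliferation genes again went apart from it, with none higher and 1 lower (−0.25).

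E11.5 limb MCPs were compared with liver MCPs of the same day, a library used above. Erythroid markers, summed, read 73.9 in limb against 376 FPKM in liver, and neutrophil and monocyte markers 516 against 1066. Mast cell markers read 806 in limb against 376 FPKM in liver. How far these differences in make-up bear on the values below was not tested. Myc was nearly level, at 56.3 in limb against 62.9 FPKM in liver, while most nucleolar genes stood lower in the limb. Of the 32 genes 12 were at least 2-fold lower, against 12.8% of 9547 genes, and none was higher, against 7.75%. On scaled FPKM 8 were lower, against 9.36%, and none was higher, against 8.89%. The median difference was −0.77, with −0.09 for all genes, and −0.64 with 0.02 when scaled. Of the 31 genes other than Myc, 25 had a difference below that of Myc.

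Every box C/D gene and every gene of the nucleolar phosphoprotein group was among the 12, while on scaled FPKM Fbl (−0.91) and Nolc1 (just short of −1) were not among the 8. Npm1 read 785 in limb against 2096 FPKM in liver, Ncl 45.6 against 102, and Nolc1, a chaperone of small nucleolar ribonucleoproteins, 6.74 against 16.03. Nop56 read 34.6 in limb against 83.1 FPKM in liver, Nop58 40.1 against 89.8 and Fbl 31.4 against 66.1. Gar1 had the largest gap, 5.79 against 17.9, and Gnl3 (8.6 against 24.6) and Wdr43 (10.4 against 28.8) came close to it. By contrast Ddx18, a helicase of large subunit assembly, read 26.6 in limb against 25.5 FPKM in liver, Noc4l 12.27 against 12.35, Rrp9 4.69 against 3.83 and Rrs1 9.16 against 5.72. Small subunit assembly genes outside the set had 17 of 45 lower and 1 higher (median −0.76), or 13 and 1 when scaled, with Mphosph10, a U3 ribonucleoprotein component, at 2.73 against 17.3. Bysl, the gene of bystin, was that 1, at 13.7 in limb against 6.27 FPKM in liver. Proliferation genes stood lower in the limb as well, in 7 of 20 (−0.55), or 4 when scaled, with none higher and Mcm7, a replicative helicase subunit, at 13.5 against 35.5.

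The limb libraries compared the same tissue at E14.5 and E11.5. Myc stood lower at E14.5, at 33.9 against 56.3 FPKM, while the median log2 difference of the other 31 genes was 0.43. No other gene of the set had a difference as low as that of Myc (−0.71), on deposited or on scaled FPKM (−0.81). Of the 31, 24 stood above their E11.5 level, and 21 did so when scaled. Whether this lean upward was particular to the 31 was not tested. Few differences were large. Nolc1 (17.0 against 6.74 FPKM) and Gar1 (13.5 against 5.79) were at least 2-fold higher, against 9.86% of 9500 genes, and none was lower, against 8.13%. Scaled, Nolc1 alone was higher, against 8.09%, none was lower, against 8.24%, and Gar1 had a log2 difference of 0.99. Nhp2 read 15.97 at E14.5 against 7.73 FPKM at E11.5, Wdr43 20.7 against 10.4 and Gnl3 16.3 against 8.6, all short of the 2-fold line on log2(FPKM + 1). Wdr12, at 4.25 against 6.38, and Ddx18, at 20.3 against 26.6, stood lower beside Myc. Proliferation genes were higher in 2 of 20 and above their E11.5 level in 20 of 20 (median 0.36), and cytosolic ribosomal protein genes had a median of −0.12.

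**Figure D3:**
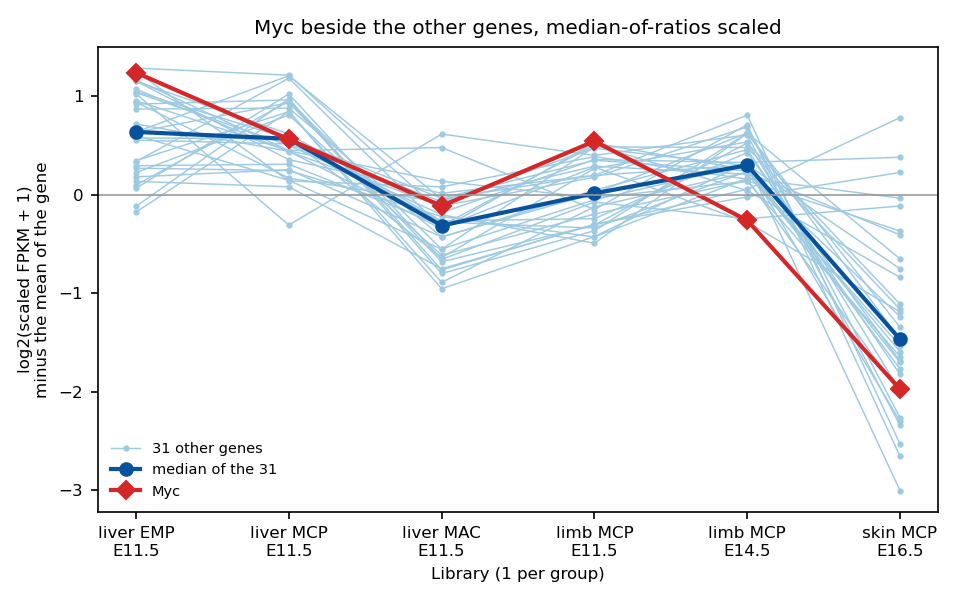
Scaled FPKM of Myc (red), of each of the other 31 genes (light blue) and the median of the 31 (dark blue) in the 6 libraries, as log2(scaled FPKM + 1) minus the mean of the gene over the libraries. Myc and the median part in the limb libraries, where Myc is lower at E14.5 than at E11.5 (29.0 against 51.5) and the median is higher.

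Skin cells at E16.5 against E14.5 limb MCPs differ in tissue and age at once. Of the 32 genes 29 were at least 2-fold lower in skin and none higher, in a pair where 55.3% of 8984 genes were lower and 5.21% higher. Scaled, 23 were lower, against 30.8% of all genes, and none higher, against 15.5%. The median difference was −2.45, with −1.11 for all genes, and −1.76 with −0.40 when scaled. Myc read 4.29 in skin against 33.9 FPKM in limb.

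The genes were spread wide in skin. Polr1b, Rrp12, Wdr74 and Ebna1bp2 were listed at 0 in skin, against 3.04, 3.91, 5.93 and 4.13 FPKM in limb. At the depth of skin a 2 kb transcript could hold up to 0.160 FPKM (3 fragments) and be counted at 0, but since high genes were also listed at 0 in this library, a 0 may be a failed estimate. Bop1 at 0.09 against 12.7 FPKM, Mybbp1a at 0.20 against 15.1, Nhp2 at 0.22 against 15.97, Rrs1 at 0.21 against 11.49 and Polr1a at 0.29 against 12.9 followed. Srm, with 3.42 in skin against 49.4 FPKM in limb, had a log2 difference of −3.51.

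A few genes were nearer to their limb level. Nop14, a small subunit factor, read 9.51 in skin against 12.3 FPKM in limb, Npm1 544 against 1016, and Nop56 16.2 against 32.8, and these 3 were the genes not past 2-fold. Gnl3 (7.63 against 16.3) and Pes1 (6.12 against 15.8) came next. When scaled, Nop14, Npm1, Nop56 and Gnl3 had differences of 0.73, 0.25, 0.13 and 0.05, so their direction turned with the scaling, while that of the other 28 did not. Partners of 1 complex lay far apart in skin, with Dkc1 at 9.7 and Nhp2 at 0.22 FPKM, and Pes1 at 6.12 and Bop1 at 0.09. Nhp2 and Bop1 rest on few fragments there.

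Other lists were lower in skin as well, so the direction was shared. Scaled medians were −0.90 for small subunit assembly, −0.84 for large subunit assembly, −0.74 for the RNA polymerase I machinery, −1.09 for the RNA exosome, −1.35 for polyamine and nucleotide synthesis, −0.77 for cytosolic and −1.03 for mitochondrial ribosomal proteins. The 20 proliferation genes had a median of −2 when scaled, and 19 of them were at least 2-fold lower, with Mcm5 at 0.56 in skin against 32.8 FPKM in limb. Single genes could be far off in this library, as Rpl3, a ribosomal protein gene, read 0.32 in skin against 171 FPKM in limb. How far library quality bears on the skin values was not tested.

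**Figure D4:**
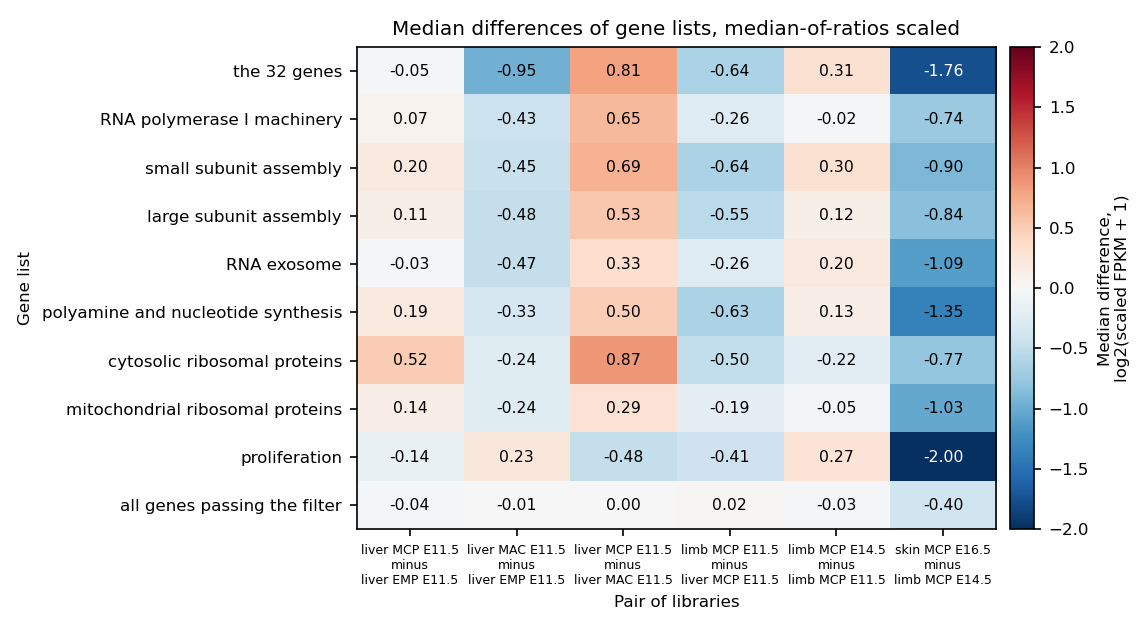
Median differences of log2(scaled FPKM + 1) for the 32 genes, 7 lists of related genes, the proliferation list and all genes passing the filter (rows) in 6 pairs of libraries (columns), the first named minus the second. Proliferation and the 32 genes take opposite signs for MAC cells minus EMPs (0.23 and −0.95) and for liver MCPs minus MAC cells (−0.48 and 0.81).

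Other lists of the pathway are given by their counts at least 2-fold higher and lower on deposited FPKM, with scaled counts beside most. For MAC cells against EMPs they are read against 5.86% higher and 9.84% lower among all genes (7.54% and 5.24% scaled). For liver MCPs against EMPs the shares were 9.23% and 11.6%. For E11.5 limb MCPs against liver MCPs they were 7.75% and 12.8% (8.89% and 9.36% scaled). For the E14.5 limb library against the E11.5 one 9.86% were higher (8.09% scaled). RNA polymerase I factors outside the set had 2 higher and 1 lower of 18 in liver MCPs against EMPs, 1 and 4 of 17 in MAC cells against EMPs (1 and 2 scaled), and 2 and 6 of 18 in E11.5 limb MCPs against liver MCPs (2 and 4 scaled). Ubtf, the upstream binding factor of ribosomal DNA, read 4.49 in the E14.5 limb library against 1.41 FPKM in the E11.5 one, the largest difference upward of its list. The RNA exosome, which trims ribosomal RNA precursors, had 3 of 14 lower and none higher in MAC cells against EMPs, but 0 of 14 lower when scaled. In E11.5 limb MCPs against liver MCPs it had 4 of 14 lower and none higher (2 lower scaled). Polyamine and nucleotide synthesis had 2 higher and 5 lower of 20 in MAC cells against EMPs on either scale, and 1 and 5 of 19 in E11.5 limb MCPs against liver MCPs (1 and 3 scaled). Mitochondrial ribosomal protein genes had 1 higher and 9 lower of 76 in MAC cells against EMPs, near the share of all genes, and 1 and 2 when scaled, below it. Genes of the MYC network had 1 higher and 3 lower of 13 in MAC cells against EMPs on either scale. The p53 arm of nucleolar stress had none of 7 past 2-fold in MAC cells against EMPs and 3 of 8 higher in the E14.5 limb library against the E11.5 one (1 scaled), with the cell cycle inhibitor gene Cdkn1a at 57.1 against 22 FPKM. The direction of these lists in MAC cells was downward by median in each, as it was for all genes on deposited FPKM (−0.24).

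The genes whose promoter windows are printed above did not move as a block. Nop2, a methyltransferase of the large subunit RNA, read 16.1 in liver MCPs and Mybbp1a 29.9, against 16.4 and 32.4 FPKM in EMPs, and both were lower in MAC cells (4.9 and 9 FPKM). Between the limb libraries Wdr43 and Pes1 stood higher at E14.5 (20.7 and 15.8 FPKM) than at E11.5 (10.4 and 9.42), Nop2 likewise (11.3 against 7.70), and Mybbp1a was level (15.1 against 14.4). In skin Pes1 kept 6.12 FPKM while Mybbp1a read 0.20.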

How the data were processed

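Bulk RNA of sorted cells was sequenced in 6 libraries, 1 per group. The authors deposited a table of FPKM values with 2 decimals, for which the submitters' processing notes name Bowtie2, RSEM and the mm10 build (GRCm38) without versions. Of 17913 rows, 4 with a repeated name were left out. Python 3.11.15 with pandas 2.3.3 and NumPy 2.4.6 was used.

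Libraries were compared by differences of log2(FPKM + 1), a scale that understates changes of low genes. A gene was counted as higher or lower at a difference of at least 1 (2-fold) with at least 1 FPKM in either library. Size factors were medians of ratios over the 4559 genes above 1 FPKM in every library, tested on simulated data. Depth was the total that brought FPKM times length (less 49 bases) nearest to whole fragments over 1409 genes with 1 annotated transcript in GENCODE M21. From 74.3% to 78.1% of the values used came within 0.2 of a whole number, and simulated libraries were recovered. Intervals of this kind cover counting error only.

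The genes, lists and comparisons were chosen with earlier results of these data known. All 32 genes could be named, and from other lists the ends of each comparison and any gene past 2-fold. Alternatives were pseudocounts of 0.1 and 5, no filter, a filter at 10 FPKM, scaling to size factors and to equal sums, and, for Myc, leaving out skin. Size factors without skin, and their use with Myc, were added after seeing the data.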

Additional observations from a re-analysis of the deposited data

How the results depend on the processing

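Of 82 counts of the 32 genes recomputed under other settings, 73 stayed within 1.5 times the reported count. Leaving out the filter could not move any count, because all 32 genes passed it in every pair. Counts of 0 that stayed at 0 are also among the 73, so this share overstates how steady the counts were. For liver MCPs against EMPs the higher genes numbered 2 with a pseudocount of 0.1, 2 with median-of-ratios size factors, 4 when rescaled to equal sums and 3 with size factors made without skin, against 1 as reported, and the lower genes numbered 1 with a pseudocount of 5, against 2 as reported and under the other settings. More genes were thus lower than higher as reported, and more were higher than lower at equal sums and with size factors made without skin. For MAC cells against EMPs 13 genes were lower with a pseudocount of 5, against 20. For the E14.5 limb library against the E11.5 one the higher genes numbered 4 with a pseudocount of 0.1, 0 with a pseudocount of 5 and 1 with size factors, against 2. The median r with Myc of 0.913 was 0.614 without the skin library, 0.869 with size factors and 0.506 with both changes, and the cause was not tested. No paired analysis was possible because each group held 1 library, and for the same reason no replicate could be left out. Depth limits the genes listed below 1 FPKM in skin, among which Bop1, Nhp2, Rrs1, Rrp9, Nop16 and Mybbp1a rest on the fewest fragments beside those listed at 0.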

Other observations

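In the GENCODE M21 annotation 5 of the 32 genes (Nop56, Nop58, Ncl, Wdr43 and Gnl3) hold named small nucleolar RNA genes inside them on the same strand. This grouping was chosen after the values had been seen and is given with no test. In liver MCPs against EMPs all 5 stood higher, with a median difference of 0.81 on log2(FPKM + 1), and 6 of the other 27 did, with a median of −0.32. Among all genes 4337 of 9448 stood higher in that pair. In E11.5 limb MCPs against liver MCPs all 5 were at least 2-fold lower (median −1.24), as were 7 of the other 27 (−0.52). Of all genes 12.8% were. For liver MCPs against EMPs, host genes outside the set, without ribosomal protein genes, did not lean higher, with 13 of 32 above 0 and a median of −0.30. Their values for E11.5 limb MCPs against liver MCPs are not given here. Npm1, Dkc1, Wdr12 and Wdr74, with no such RNA named inside them in this annotation, also stood higher in liver MCPs than in EMPs and at least 2-fold lower in E11.5 limb MCPs than in liver MCPs, so the pattern was not limited to the 5. Both comparisons share the liver MCP library, on opposite sides.

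Cytosolic ribosomal protein genes stood above the set in liver MCPs against EMPs, with 21 of 77 at least 2-fold higher, 2 lower and a median of 0.48, where the set had −0.09. Of all genes 9.23% were higher and 11.6% lower. Rps27 had the largest difference, at 244 in liver MCPs against 38.8 FPKM in EMPs, and was listed at 0 in MAC cells and in both limb libraries. Mrps21, a mitochondrial ribosomal protein gene, was likewise listed at 0 in E11.5 limb MCPs, against 23.3 FPKM in liver MCPs. Zeros of this kind are thus not limited to skin, and the list counts include such genes. Whether they are failed estimates was not tested.

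Of the MYC partners and antagonists, Mxd1, which encodes a partner of MAX that represses E-box genes, read 6.65 in MAC cells against 2.46 FPKM in EMPs and 7.52 in skin cells against 2.27 in E14.5 limb MCPs, the largest differences upward of its list in both pairs. Mxd4 read 25.4 in E11.5 limb MCPs against 6.45 FPKM in liver MCPs.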
